A study of Mus musculus with 18 samples.

Results

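The 40 genes described here are interferon-stimulated genes, chosen by symbol from 24421 genes in each of 3 deposited count tables; all 40 were listed in every table. The tables hold bulk RNA-seq of mouse esophageal organoids, which are clusters of epithelial cells grown in gel. All 18 libraries share the labelled genotype Trp53-/-, Myc OE and sgCdkn2a, and the groups differ in stage, in sgTgfbr2 and in treatment. The premalignant table holds 3 libraries labelled sgScr and 4 libraries that also carry sgTgfbr2, from 2 numbered lines of 2 libraries each, called line 1 and line 2 here. The tumor table holds 3 libraries labelled sgScr and 2 labelled sgTgfbr2. The third table holds sgTgfbr2 tumor organoids given DMSO (vehicle, 3 libraries) or 2 µM pinaverium bromide (PB, 3 libraries), a calcium channel blocker used for bowel spasm. PB was added after 72 h of culture, and no source used here gives the length of exposure. The growth protocol gives every group the same medium, with A83-01, which blocks the TGF-beta type I receptor, at 2 µM. Whether a replicate is a separate culture or animal is not stated in the labels; the p-values therefore cover the spread among these libraries, which may be technical.

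Type I and type III interferons bind receptors on the cell surface, and the Janus kinases on those receptors phosphorylate STAT2 among their substrates. A complex that holds STAT2 and IRF9 enters the nucleus and binds the interferon-stimulated response element (ISRE) in the promoters of target genes, many of which block viral replication or amplify sensing of foreign RNA. Several of the genes, Irf1 among them, also answer to interferon gamma, whose signal acts through a different element, the gamma-activated site (GAS).

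The ISRE is the sequence that the family is known for, so it was looked up in the members' promoters. RefSeq promoter windows (GRCm38.p6, from 250 bases before to 50 after the annotated start) matched 30 of the 40 genes by symbol. The ISRE core was searched as GAAA, any 2 bases and GAAA again, on either strand, so that TTTC, any 2 bases and TTTC is the same core read on the opposite strand. It occurred in the windows of 15 of the 30 genes (50%), against 3.99% of 27025 genes with a window. The GAS, searched as TTCNNNGAA, which is its own reverse complement, occurred in 7 of the 30 (23.3%), against 9.55% of all genes. A match is a description of letters and not of binding. The 8 stretches below show the cores, in capitals, before the start of genes that the results return to; each runs 5′ to 3′ on the gene's strand.
Isg15, chr4:156200860-156200911, minus strand: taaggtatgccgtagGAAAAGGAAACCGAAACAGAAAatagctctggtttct
Stat2, chr10:128270261-128270300, plus strand: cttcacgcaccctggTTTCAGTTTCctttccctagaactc
Ifit1, chr19:34640770-34640828, plus strand: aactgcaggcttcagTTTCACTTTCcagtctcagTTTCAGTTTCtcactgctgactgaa
Ifit3, chr19:34583358-34583431, plus strand: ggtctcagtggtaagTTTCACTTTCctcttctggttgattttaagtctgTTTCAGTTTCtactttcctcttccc
Ifit3b, chr19:34607754-34607827, plus strand: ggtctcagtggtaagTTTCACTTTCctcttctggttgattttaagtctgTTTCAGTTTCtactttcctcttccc
Oas1a, chr5:120907526-120907560, minus strand: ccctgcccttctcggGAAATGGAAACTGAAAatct
Oas3, chr5:120777710-120777749, minus strand: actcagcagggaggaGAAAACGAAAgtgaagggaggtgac
Rsad2, chr12:26456548-26456587, minus strand: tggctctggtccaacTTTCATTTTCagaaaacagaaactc
The Isg15 stretch holds 3 overlapping matches, which begin 78, 72 and 66 bases before the start, and the Oas1a stretch holds 2 overlapping matches just before the start. Ifit1, Ifit3 and Ifit3b each hold 2 separate cores. The stretches of Ifit3 and Ifit3b differ at 0 of 74 bases. These neighbouring genes also share sequence in their transcripts: 51.2% of the 50-base words of Ifit3 occur in other genes, most in Ifit3b, so reads may be split between the copies. The same holds for Oas1a, with 57.6% of its words in other genes, most in Oas1g.

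Library totals ran from 14993749 to 21784140 counts, with 15565 to 16713 genes detected, and 3 counts corresponded to between 0.138 and 0.20 CPM, the count scaled to a library total of 1000000. The guide target Tgfbr2 had 195 ± 20.8 CPM in premalignant sgScr (SD, n = 3), 113 ± 21.2 in premalignant sgTgfbr2 (n = 4), 120 ± 8.76 in tumor sgScr (n = 3) and 69.3 ± 2.64 in tumor sgTgfbr2 (n = 2); gene-level counts include transcripts of an edited or partly deleted gene. Trp53, labelled -/- in all groups, had group means from 24.8 to 93.5 CPM, which for the same reason do not check that label. The tumor table went against its labels in several ways. Myc, labelled OE in all groups, averaged 44.7 CPM (sgScr) and 72.5 CPM (sgTgfbr2) in that table against 349 to 518 in the other 4 groups, and Cdkn2a had 0.547 in tumor sgScr against 152 to 340 elsewhere. Although labelled as organoids, the libraries labelled tumor sgScr held 7 of 7 fibroblast markers and 9 of 12 immune markers at 1 CPM or more, and the libraries labelled tumor sgTgfbr2 held 7 of 7 and 10 of 12. In the other 4 groups at most 1 marker of each of these lists reached 1 CPM. Every result from the tumor table below rests on those libraries.

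The summed level of the 40 genes differed several-fold between the tables. In premalignant sgScr it was 445 ± 24.1 CPM (SD, n = 3), from 426 to 472. Premalignant sgTgfbr2 had 633 ± 42.0 CPM (n = 4), from 586 to 688, with no overlap with sgScr. In the tumor table the sums were 1082 ± 29.5 CPM in the libraries labelled sgScr (n = 3) and 1153 ± 22.7 in those labelled sgTgfbr2 (n = 2). Vehicle had 2648 ± 8.28 CPM and PB 1727 ± 8.82 (n = 3 each), the first and second highest sums of the 6 groups. No test was run on levels across tables, because each was deposited on its own. The order of the 2 tumor groups depends on scaling: with trimmed-mean (TMM) scaling their sums were 1172 and 1024 CPM.

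**Figure D1:**
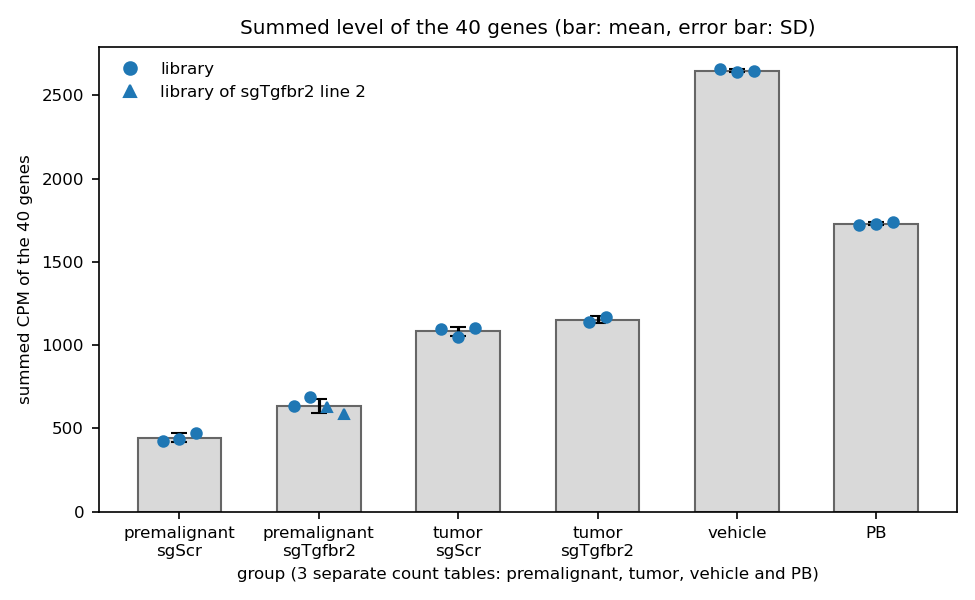
Summed CPM of the 40 genes (vertical axis, from 0) for each group; bars are means, error bars SD, and points single libraries, with triangles for sgTgfbr2 line 2. The vehicle libraries lie between 2641 and 2657 CPM and the PB libraries between 1721 and 1737, above all libraries of the other 4 groups.

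Vehicle was the group with the highest mean for 31 of the 40 genes, where 17.6% of 15091 genes with at least 1 CPM in some group had their highest mean there. The exceptions were Irf1, highest in PB, then Gbp3, Herc6, Oas1a, Samd9l and Trim30a, highest in the libraries labelled tumor sgScr, and Gbp2, Oasl1 and Zbp1, highest in those labelled tumor sgTgfbr2. All 40 genes were higher in every vehicle library than in every premalignant sgScr library, a separation shown by 46.1% of 12294 genes. Against premalignant sgTgfbr2 it was 38 of 40 (37.8% of 12426 genes). Against the libraries labelled tumor sgTgfbr2, which share vehicle's labelled genotype, 35 genes lay wholly higher in vehicle and 3 wholly lower (52.4% and 35.9% of 13363 genes).

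Single members show the range. Oas2, an enzyme that makes the 2-5A second messenger on double-stranded RNA, had 0.293, 0.459 and 0.458 CPM in premalignant sgScr and 107, 105 and 101 in vehicle. Ifi44, an interferon-induced protein linked to restraint of viral growth, had 0.0586, 0.643 and 0.204 CPM in premalignant sgScr against 42.6, 40.04 and 40.6 in vehicle. At the other end, Ifi35, a partner of NMI, differed less, with 28.3 ± 2.42 CPM in premalignant sgScr and 51.6 ± 2.29 in vehicle (n = 3 each), again without overlap. In the premalignant organoids the low genes were near the limit of counting: Zbp1, a sensor of Z-form nucleic acid, had no count in either line 2 library, where 3 counts are 0.138 and 0.195 CPM.

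Per kilobase of exon, Ifi27, a small mitochondrial protein, had the highest level of the 40 genes in 5 of the 6 groups, with 91.9 ± 1.09 CPM per kb in vehicle (n = 3). Isg15, the ubiquitin-like modifier, was next in vehicle at 74.6 ± 0.326 CPM per kb, followed by Bst2 (tetherin, which holds budding virions on the cell) at 58.6 ± 4.13 and Trim25, an E3 ligase that acts on RIG-I, at 49.7 ± 0.401. In premalignant sgTgfbr2 the highest were Bst2 at 32.6 ± 2.43 CPM per kb and Irf1 at 27.9 ± 8.74 (n = 4), which do not differ beyond their spread. The lead of Ifi27 also lay within the spread in premalignant sgScr, at 25.8 ± 3.55 against 24.9 ± 1.39 for Bst2. The same held in tumor sgScr, at 66.5 ± 2.44 against 59.9 ± 8.49 for Isg15 (n = 3 in both groups). Herc6, the main ligase for ISG15 in mice, was the lowest per kilobase in vehicle, at 0.868 ± 0.0591 CPM per kb.

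**Figure D2:**
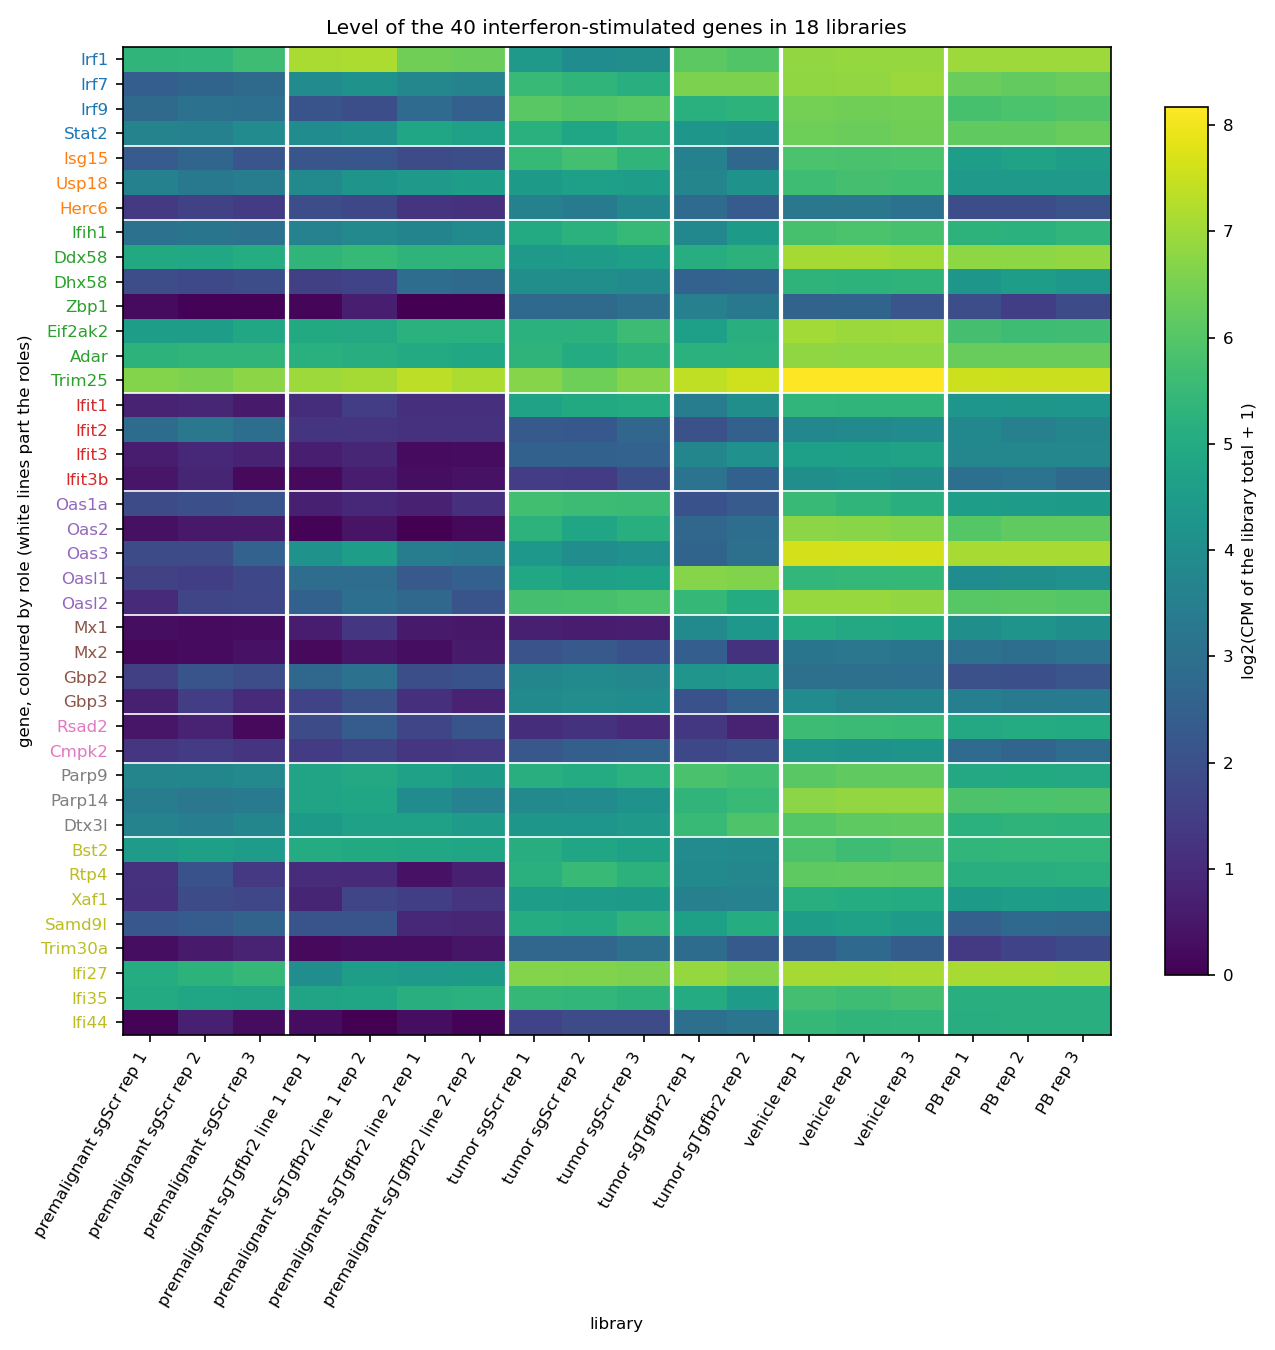
Level of each of the 40 genes (rows, coloured by role) in each of the 18 libraries (columns), as log2 of CPM of the library total plus 1. The premalignant columns are darkest for Zbp1, Ifit3, Ifit3b, Oas2, Mx2, Trim30a and Ifi44, which had under 1 CPM in every premalignant library. The vehicle columns are brighter than the PB columns for most rows.

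The first comparison asks how PB changed these genes in sgTgfbr2 tumor organoids. Of the 40 genes, 35 fell and 2 rose at an adjusted p below 0.05, and the other 3 did not pass (edgeR quasi-likelihood test with Benjamini-Hochberg adjustment over all genes). Among all 12801 genes tested, 36.8% fell and 36.5% rose. The median log2 fold change was -0.72 over the 40 genes and -0.01 over all genes. On library-total scaling, which moves the median of all genes to -0.15 and the split of all calls from 4666 higher and 4713 lower to 3301 and 6155, the counts for the 40 genes were 36 lower and 1 higher. In CPM of the library total, 37 genes lay wholly lower in PB than in vehicle (48.5% of all genes). With DESeq2 in place of edgeR, 32 of the 40 genes fell and 2 rose, against 4127 and 4311 of all genes. Ddx58, Gbp3 and Ifi44 did not pass there. The edgeR call for Gbp3 also ended without vehicle replicate 1 (-0.22). That for Ifi44 ended without vehicle replicate 1 (-0.12) or PB replicate 1 (-0.13). In bulk RNA, fewer cells of a type and less RNA per cell cannot be told apart.

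The ISG15 system fell as a group, 3 of 3 genes. Isg15 had 56.5, 56.1 and 56.6 CPM in vehicle and 23.2, 25.4 and 22.3 in PB. The PB libraries were all less than every vehicle library, and the log2 fold change was -1.12 ± 0.06 (SE; edgeR adjusted p = 6.8e-27). Usp18, the protease that removes ISG15 and damps receptor signalling, had 48.9, 53.1 and 51.4 CPM in vehicle and 20.3, 20.3 and 20.7 in PB, a log2 fold change of -1.18 ± 0.06. Herc6 fell from a mean of 8.06 to 3.0 CPM (log2 fold change -1.29 ± 0.16).

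All 7 sensors and regulators of sensing fell. Eif2ak2, which encodes PKR, the kinase that halts translation on double-stranded RNA, had 132, 124 and 124 CPM in vehicle and 53.2, 48.3 and 50.0 in PB, with a log2 fold change of -1.19 ± 0.04 (edgeR adjusted p = 1.3e-36). Trim25, the highest of the role in CPM, fell from 286 to 185 (-0.49 ± 0.03). Dhx58, the regulator LGP2, fell by 0.79 on the log2 scale and Ifih1, the sensor MDA5, by 0.39. Ddx58, the sensor RIG-I, had the smallest change of the role, -0.10 ± 0.03, with an edgeR adjusted p of 0.0072 and a DESeq2 adjusted p of 0.0857.

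All 5 members of the OAS family fell. Oasl1, which represses translation of Irf7, had 41.3, 42.3 and 43.0 CPM in vehicle and 14.8, 15.7 and 16.7 in PB, a log2 fold change of -1.28 ± 0.07 (edgeR adjusted p = 2.8e-26). Oas3, the highest of the family in CPM, had 200, 197 and 201 CPM in vehicle and 135, 136 and 135 in PB (-0.42 ± 0.03). Oas2 changed by -0.46, and Oas1a and Oasl2 both by -0.72. Among the Ifit genes, Ifit3b (-1.09 ± 0.11), Ifit1 (-0.96 ± 0.07) and Ifit3 (-0.78 ± 0.08) fell. Ifit2 had 12.7, 13.7 and 14.3 CPM in vehicle and 13.0, 10.8 and 12.4 in PB, overlapping groups that did not pass the test (-0.03 ± 0.10).

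The largest fall among the 40 genes was that of Samd9l, a translation-restricting antiviral factor. It had 22.9, 24.6 and 22.0 CPM in vehicle and 4.74, 5.88 and 5.54 in PB, a log2 fold change of -1.96 ± 0.10 (edgeR adjusted p = 1.2e-26). Cmpk2, a mitochondrial nucleotide kinase that lies beside Rsad2, fell from 17.7 to 6.04 CPM (-1.41 ± 0.11), while Rsad2, which encodes viperin, fell from 46.6 to 30.7 (-0.46 ± 0.06). The PARP9 group also fell, 3 of 3: Parp9 by 1.08 on the log2 scale, Parp14 by 0.81 and Dtx3l, the ligase that pairs with PARP9, by 0.73. Parp9 and Dtx3l overlap on opposite strands over 458 exon bases, and whether counting used strand is not stated in the sources. Of the GTPases, Gbp2 fell from 7.0 to 3.17 CPM (-1.0 ± 0.16) and Mx1 from 30.1 to 16.5 (-0.73 ± 0.08), while Mx2 did not pass (-0.03 ± 0.12). Rtp4, a negative regulator of the interferon response, fell from 70.4 to 34.9 CPM (-0.87 ± 0.05).

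The transcription factors had the smallest median change of the 9 roles, -0.22 on the log2 scale. Irf7, the amplifier of interferon production, fell from 116 to 76.8 CPM (-0.46 ± 0.04), and Irf9 from 85.5 to 57.7 (-0.43 ± 0.04). Stat2 had 81.5, 78.2 and 84.3 CPM in vehicle and 72.0, 70.7 and 75.8 in PB; these values do not overlap, but with TMM scaling the log2 fold change was -0.02 ± 0.04 and did not pass. Irf1 was the only member wholly higher in PB, as were 26.2% of all genes, with 114, 116 and 116 CPM in vehicle and 126, 125 and 124 in PB (0.26 ± 0.03; edgeR adjusted p = 2.4e-10). Ifi27 was called higher with TMM scaling (0.13 ± 0.03) and not with library totals (-0.013, edgeR adjusted p = 0.726), and its values overlapped.

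**Figure D3:**
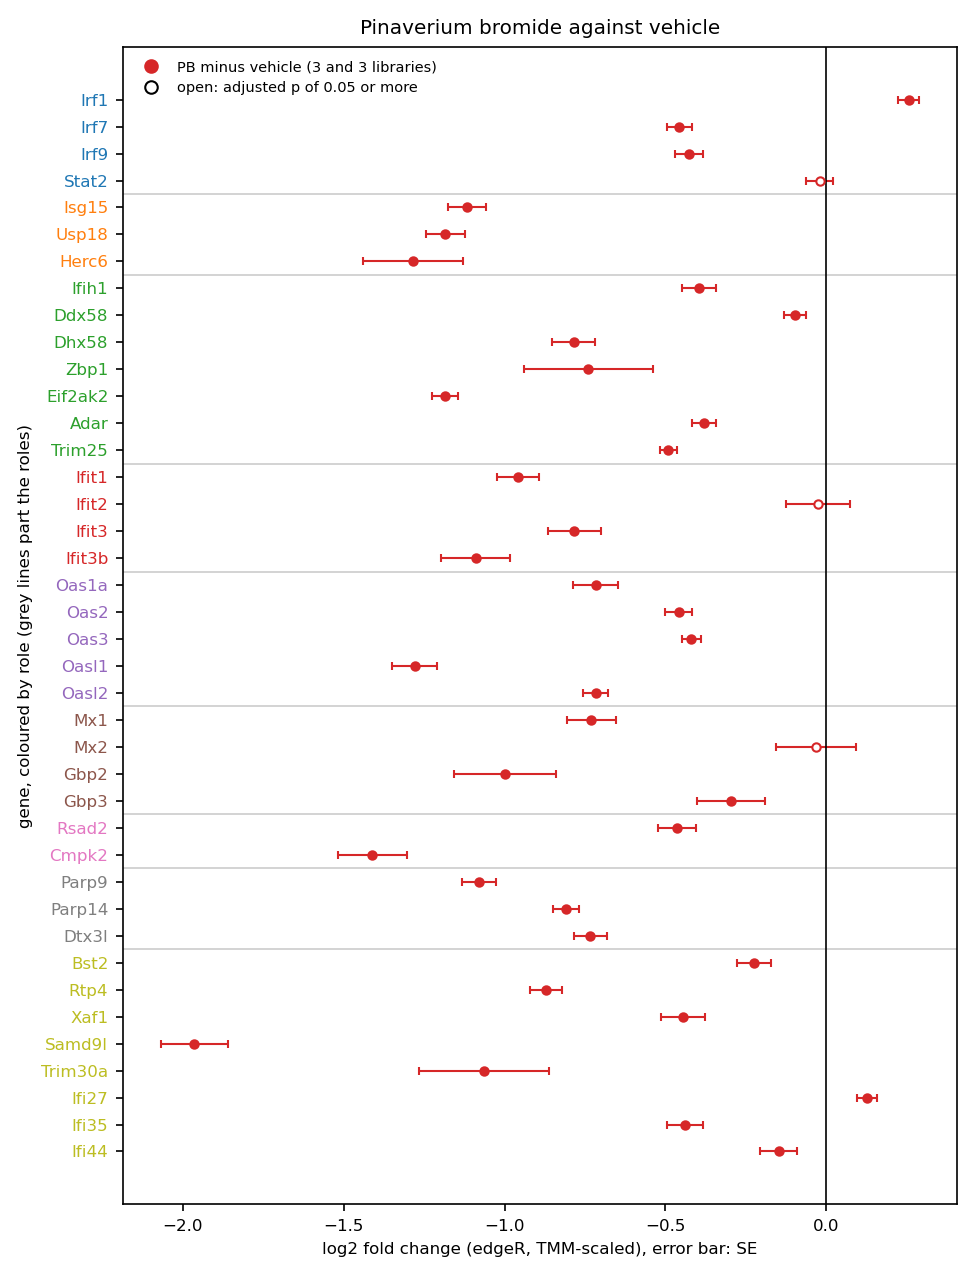
Log2 fold change of PB against vehicle (horizontal axis; 3 libraries each) for each of the 40 genes, ordered and coloured by role, with SE as error bars and open points at an adjusted p of 0.05 or more. Samd9l lies farthest left at -1.96, and only Irf1 and Ifi27 lie to the right of 0.

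Interferon transcripts themselves were scarce. Ifnl2 and Ifnl3, type III interferons, were the only 2 of 10 listed ligand genes with enough counts to test in this table. Ifnl3 had 7, 1 and 7 counts in vehicle and 11, 12 and 17 in PB (log2 fold change 1.60 ± 0.47, edgeR adjusted p = 0.0018), and Ifnl2 had 10, 3 and 2 counts against 10, 10 and 19 (1.56 ± 0.48). Both passed the filter on low counts only through PB, since no vehicle library reached its minimum of 0.647 CPM, so a gene kept in this way had to be higher in PB. Of 14 receptor and JAK-STAT genes, 4 rose and 6 fell, among them the kinases Jak2 (0.54) and Tyk2 (-0.72); these counts are near the shares over all genes given above. Of 36 other interferon-induced genes tested, 29 fell and 4 rose, and of 13 interferon gamma-induced genes 7 fell and 3 rose, with Wars, a tRNA synthetase, at 1.08 and Irgm2, an immunity-related GTPase, at -1.79. The immune marker sum was 40.5 CPM in both groups, with only Cd68 of 12 markers at 1 CPM or more, and the leukocyte genes Lyz2, Tyrobp and Adgre1 had no count in either group. Squamous markers summed to 11611 ± 97.2 CPM in vehicle and 9524 ± 53.8 in PB. The gastric gland list, nearly all of it from the keratins Krt18 and Krt8, summed to 723 ± 5.71 CPM in vehicle and 458 ± 3.03 in PB. The part of these differences in the result was not tested.

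The second comparison asks how sgTgfbr2 changed the genes in premalignant organoids. Here 33 of the 40 genes had enough counts to test: 16 were higher in sgTgfbr2 and 6 lower at an adjusted p below 0.05. The test took the 4 sgTgfbr2 libraries as replicates. They came from 2 lines, and libraries of different lines differed more than libraries of the same line. Without sgScr replicate 2 the count of lower genes was 3. Of all 13098 genes tested, 22.7% were higher and 23.5% lower. The median log2 fold change was 0.43 over the 33 genes and -0.00 over all genes. Zbp1, Ifit3b, Oas2, Mx1, Mx2, Trim30a and Ifi44 were not tested because their counts were too low. The difference in the summed level, 633 against 445 CPM, came to 36.1% from Irf1 and to 58.1% from Irf1 and Trim25 together.

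Of the 4 transcription factors, 3 were higher and 1 was lower. Irf1, an activator of interferon and antigen-presentation genes, had 39.7, 40.7 and 48.7 CPM in sgScr, 139 and 143 in line 1, and 83.6 and 78.2 in line 2. Both lines were above sgScr, and the pooled log2 fold change was 1.30 ± 0.22 (SE; edgeR adjusted p = 0.0017). Irf7 had 4.45, 5.23 and 6.05 CPM in sgScr, 14.6 and 17.3 in line 1, and 12.8 and 11.7 in line 2 (1.35 ± 0.18). Stat2 was higher (0.68 ± 0.22), but its value was 0.29 with line 1 alone (edgeR adjusted p = 0.125) and 0.99 with line 2 alone. Irf9 was lower (-0.72 ± 0.27; edgeR adjusted p = 0.049); with line 2 alone it did not pass (-0.37), and leaving out any library other than line 2 replicate 1 also ended its call (-0.80 to -0.57). The call for Stat2 ended without sgScr replicate 1 or 2 or either line 2 library (0.53 to 0.63).

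In the OAS family, Oas3, Oasl1 and Oasl2 rose and Oas1a fell. Oas3 had 2.75, 2.75 and 4.99 CPM in sgScr, 16.9 and 23.0 in line 1, and 9.80 and 8.83 in line 2, a pooled log2 fold change of 1.99 ± 0.37 (edgeR adjusted p = 0.0027). Oas1a had 2.64, 3.03 and 3.36 CPM in sgScr and from 0.652 to 1.17 in the 4 sgTgfbr2 libraries (-1.90). Rsad2 had 7, 16 and 3 counts in sgScr and between 49 and 70 in the sgTgfbr2 libraries (2.74 ± 0.47). Of the 16 higher genes it was the 1 that passed the filter on low counts only through sgTgfbr2, so its call had to be in that direction. The PARP9 group rose, 3 of 3: Parp14 by a log2 fold change of 1.04, Dtx3l by 0.93 and Parp9 by 0.93. The call for Parp14 ended without any of the 3 sgScr libraries in turn, at values of 1.0 to 1.08.

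Ifit2 had the largest fall. It had 6.39, 8.35 and 6.77 CPM in sgScr, 1.41 and 1.38 in line 1, and 1.24 and 1.23 in line 2, a log2 fold change of -2.51 ± 0.21 (edgeR adjusted p = 7.6e-05). Ifi27 fell from 37.9 to 19.7 CPM (-1.02 ± 0.15), and Adar, which edits adenosine in double-stranded RNA, from 39.3 to 31.9 (-0.37 ± 0.10). Rtp4 was also lower (-1.52), at under 4 CPM in every library. Usp18 rose by a log2 fold change of 0.83, Ifih1 by 0.69, Trim25 by 0.43, Eif2ak2 by 0.36, Ddx58 by 0.34 and Bst2 by 0.31. Isg15 did not pass, with 4.04, 5.42 and 3.46 CPM in sgScr and from 2.67 to 3.53 in sgTgfbr2. The call for Bst2 was lost with line 2 alone, and those for Eif2ak2, Adar and Rtp4 with line 1 alone. Leaving out single libraries ended the calls for Eif2ak2 (0.30 to 0.33; sgScr replicate 1 or 2, or either line 2 library), Ddx58 (0.31 to 0.33; sgScr replicate 1 or 2) and Bst2 (0.26 to 0.31; sgScr replicate 1 or 3, or either line 1 library). They also ended those for Adar (-0.34; sgScr replicate 2) and Rtp4 (-1.45 to -0.98; sgScr replicate 2 or line 2 replicate 2).

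Of the wider pathway, 11 of 14 receptor and JAK-STAT genes rose. Ifnlr1, the type III interferon receptor chain, rose by a log2 fold change of 1.58 ± 0.15 and Ifnar1, a type I receptor chain, by 0.77 ± 0.09. Of 13 upstream sensing genes 8 rose and the other 5 did not pass, and Irf5 had a log2 fold change of 1.25. Of 37 other interferon-induced genes 17 rose and 1 fell, and of 8 interferon gamma-induced genes 4 rose, with the chemokine Cxcl10 at 2.75, and 1 fell. The shares over all 13098 genes tested were 22.7% higher and 23.5% lower. The immune marker sum ranged from 13.5 to 25.9 CPM in sgScr and from 31.7 to 55.7 in sgTgfbr2; Cd68 alone of 12 markers reached 1 CPM, and Lyz2, Tyrobp, Cd3e, Adgre1 and Siglech had no count in either group. Squamous markers summed to 11618 to 12368 CPM in sgScr and to 5834 to 8825 in sgTgfbr2. The gastric gland list, again mostly Krt18 and Krt8, summed to 822 to 871 and 1148 to 1224. None of these summed ranges overlap, but single markers went both ways. Krt14, Krt13 and Krt6a were lower in both lines and Trp63 was higher in both. Krt5 was lower in line 1 and overlapped sgScr in line 2. Krt4 was lower in line 1 and higher in line 2. Krt18 was higher in both lines, while Krt8 was higher in line 1 and lower in line 2. The part of these differences in the result was not tested.

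The lines differed from each other in 14 of 34 tested members, against 26.3% of all genes tested. In line 2, 6 were higher and 8 lower than in line 1, against 13.2% and 13.1% of 13438 genes. Dhx58 had 1.95 and 2.16 CPM in line 1 and 6.62 and 6.04 in line 2 (log2 difference 1.63 ± 0.24; edgeR adjusted p = 0.00026), with 2.52 to 2.81 in sgScr. Samd9l went the opposite way, with 3.37 and 3.35 CPM in line 1 and 0.920 and 0.844 in line 2 (-1.91 ± 0.32), against 3.63 to 5.09 in sgScr. Stat2 (0.75) and Irf9 (0.81) were higher in line 2, though the Irf9 call ended without either line 1 library or line 2 replicate 1 (0.60 to 0.94), while Irf1 (-0.79), Parp14 (-1.01) and Oas3 (-1.09) were lower. Squamous markers summed to 6018 and 5834 CPM in line 1 and to 8825 and 8643 in line 2, and immune markers, mostly Cd68, to 31.7 and 32.2 against 52.8 and 55.7; the part of these in the differences was not tested. What the line numbers stand for is not given in the labels, and each line has 2 libraries. Without line 1 replicate 1 or line 2 replicate 1 the count of higher genes was 2, and without line 1 replicate 2 or line 2 replicate 2 it was 3.

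**Figure D4:**
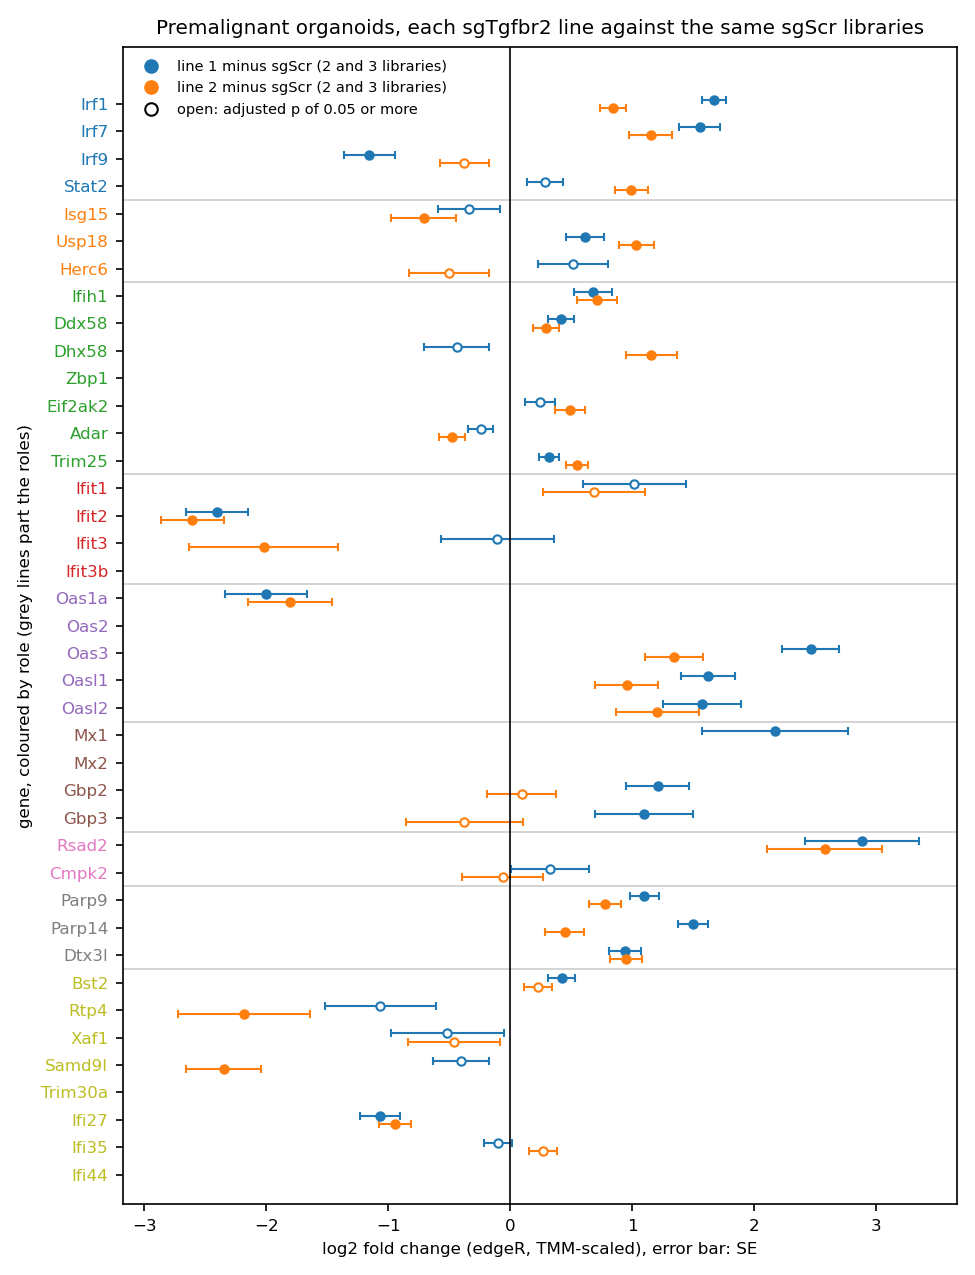
Log2 fold change of line 1 (blue) and line 2 (orange) against the same 3 premalignant sgScr libraries (horizontal axis) for each tested gene, with SE as error bars and open points at an adjusted p of 0.05 or more. Because the lines share their controls, their likeness is no separate evidence; Dhx58 and Samd9l show the lines apart.

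The third comparison sets the libraries labelled tumor sgTgfbr2 against those labelled tumor sgScr. All 40 genes were tested: 12 were higher and 20 lower in sgTgfbr2, against 29.8% and 30.5% of 15091 genes. The median log2 fold change was -0.56 over the 40 genes and -0.02 over all genes. With library totals in place of TMM the median of all genes moved to 0.26 and the split of all calls from 4492 higher and 4603 lower to 6046 and 3361; the 40 genes then gave 14 higher and 18 lower. Skeletal muscle markers summed to 16464 ± 298 CPM in sgScr and 2.63 ± 1.19 in sgTgfbr2, where Myh8 and Tnnc2 had no count. Gastric gland markers summed to 2.32 ± 0.373 and 30536 ± 2195 CPM, with Gkn1, Gkn2, Gif, Tff2 and Muc5ac at no count in sgScr. Squamous markers summed to 123030 and 30345 CPM, immune markers to 914 to 931 and 842 to 853, and fibroblast markers to 2931 to 3154 and 2411 to 2489. Single markers went both ways. Krt13 and Krt4, most of the squamous sum in sgScr, were lower in sgTgfbr2. Krt5, Krt14 and Krt6a were higher there, and Trp63 overlapped. Of the immune and fibroblast markers, Lyz2 and Dcn were among those lower in sgTgfbr2, and Laptm5 and Col1a2 among those higher. The part of this tissue makeup in the differences below was not tested.

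Within the OAS family, 4 genes were lower and 1 higher. Oas1a had 51.2, 48.0 and 46.2 CPM in sgScr and 3.15 and 4.08 in sgTgfbr2, a log2 fold change of -4.03 ± 0.20 (edgeR adjusted p = 1.0e-13). Oas2 had 37.9, 27.8 and 34.6 CPM against 5.48 and 6.82 (-2.73 ± 0.21), and Oas3 fell by 1.76 on the log2 scale. Oasl1 was the exception, with 28.7, 24.8 and 26.0 CPM in sgScr and 103 and 96.9 in sgTgfbr2 (1.63 ± 0.14). The ISG15 system was lower, 3 of 3: Isg15 had 43.3, 52.5 and 40.1 CPM against 10.96 and 5.59 (-2.73 ± 0.24), Herc6 a log2 fold change of -1.40 and Usp18 -0.87.

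Mx1, a GTPase that blocks influenza viruses, had the largest rise. It had 0.634, 0.556 and 0.594 CPM in sgScr, 10 to 12 counts per library, and 13.9 and 19.5 CPM in sgTgfbr2, a log2 fold change of 4.51 ± 0.33 (edgeR adjusted p = 6.9e-11). Gbp3, a guanylate-binding protein, moved the other way (-2.16 ± 0.26). Ifit3 rose (1.30 ± 0.24) and Ifit3b with it (1.27 ± 0.38), the copies that share sequence, while Ifit1 fell (-1.49 ± 0.21) and Ifit2 did not pass (-0.48 ± 0.35). Without sgTgfbr2 replicate 1 the change of Ifit3b was 0.84 and its call was lost. Ifi44 rose from 2.50 to 7.72 CPM (1.34 ± 0.32).

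Among the transcription factors, Irf1 rose, with 20.1, 14.9 and 15.4 CPM in sgScr and 68.7 and 61.2 in sgTgfbr2 (1.67 ± 0.17), as did Irf7 (0.95 ± 0.15). Stat2 (-1.12 ± 0.18) and Irf9 (-1.09 ± 0.15), subunits of the ISRE-binding complex, fell. The PARP9 group rose, with Parp14 at 1.19, Dtx3l at 1.16 and Parp9 at 0.37; the Parp9 call ended without sgScr replicate 2 or 3 or sgTgfbr2 replicate 1 (0.27 to 0.40). Ddx58 was called higher (0.40), and leaving out any of the 5 libraries ended that call. Dhx58 (-1.83), Rtp4 (-1.82), Ifih1 (-1.42), Bst2 (-1.31) and Xaf1, a pro-apoptotic factor (-1.28), fell. Of the wider pathway, 10 of 15 interferon gamma-induced genes fell and 2 rose, with the GTPase Gbp6 at -3.62 and Nlrc5, an activator of MHC class I genes, at -2.95. Of 38 other interferon-induced genes 17 rose and 10 fell. Of all 15091 genes tested, 29.8% were higher and 30.5% lower, so 10 of 38 is near the share over all genes.

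The fourth comparison tested whether the sgTgfbr2 difference was the same at both stages, as an interaction over the 12 libraries of the 2 tables, which share no controls. The difference was more positive in the tumor table for 5 of the 40 genes and more negative for 17, against 25.0% and 24.5% of 15671 genes; with library totals the split of all calls moved from 3924 and 3838 to 4976 and 3058, and the median of all genes from -0.03 to 0.20. Stage is also table here, and the tumor libraries carry the tissue markers given above, so stage and table cannot be told apart. The 7 genes too low to test in the premalignant table enter here only through their tumor counts, and Mx1 and Ifi44, among the 5 more positive genes, are such cases. Of the 33 genes tested in both tables, 3 were more positive and 17 more negative, against 29.3% and 25.7% of 12643 genes. With line 2 as the only premalignant sgTgfbr2 line, 11 of the 40 genes were more positive and 15 more negative. Of all 15603 genes tested in that setting, 4143 were more positive and 4011 more negative. The count of 11 is thus near the share over all genes.

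There were 7 genes that were higher with sgTgfbr2 in the premalignant table and lower with it in the tumor table: Stat2, Usp18, Ifih1, Eif2ak2, Oas3, Oasl2 and Bst2. The interaction passed for all 7, from -1.16 ± 0.24 for Eif2ak2 to -3.75 ± 0.49 for Oas3 (edgeR adjusted p = 1.4e-05). Because these genes were picked by opposite calls in the same libraries, that outcome was nearly fixed beforehand and is no separate evidence. Another 8 were higher in both: Irf1, Irf7, Ddx58, Trim25, Oasl1, Parp9, Parp14 and Dtx3l, of which Parp9 alone had an interaction past the threshold (-0.57 ± 0.19), which it lost without premalignant sgScr replicate 1 or tumor sgTgfbr2 replicate 2 (-0.53 to -0.48). Irf1 had an interaction of 0.37 ± 0.29 and Oasl1 of 0.32 ± 0.27, neither past the threshold. Irf9, Oas1a and Rtp4 were lower in both, and no gene was lower in the premalignant and higher in the tumor table. The share of all genes with each of these patterns was not counted, so the counts are descriptions of the list.

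**Figure D5:**
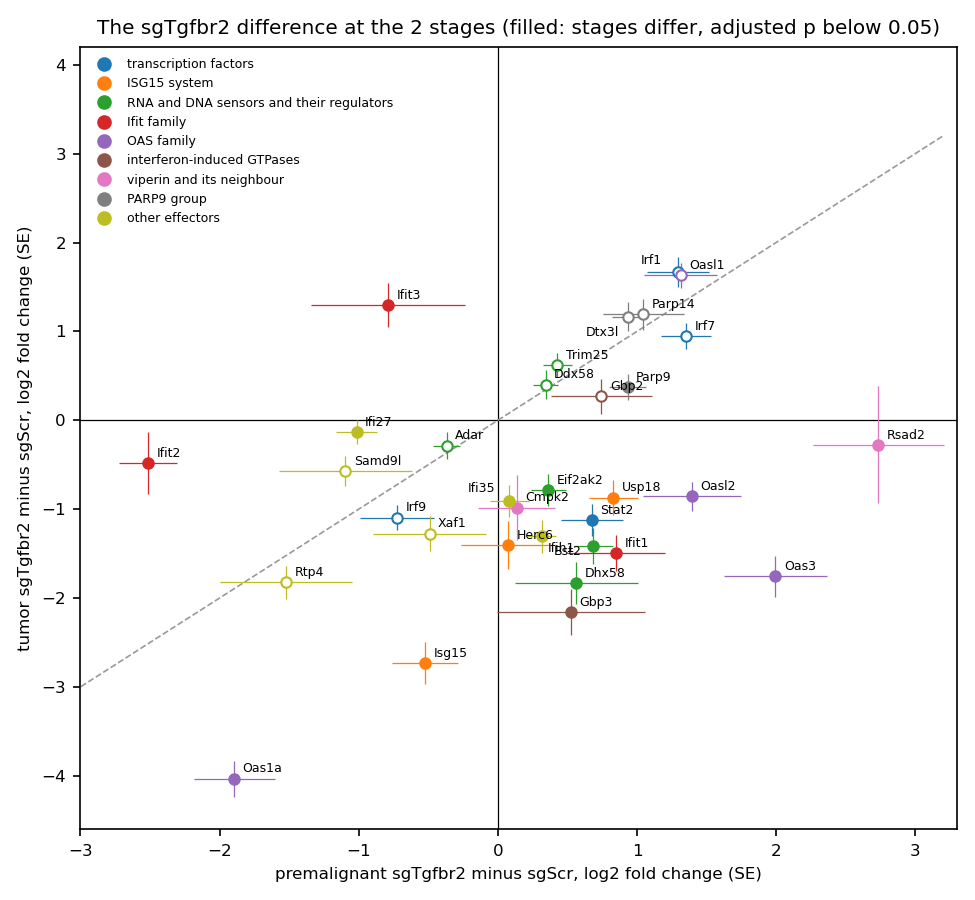
Log2 fold change of sgTgfbr2 against sgScr in the tumor table (vertical axis) against that in the premalignant table (horizontal axis) for the 33 genes tested in both, with SE as error bars, colours for roles and filled points where the stages differ at an adjusted p below 0.05. The dashed line marks equal changes; Oas3 and Rsad2 lie at the lower right, and Irf1, Oasl1, Parp14 and Dtx3l lie near the line.

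By the deposited adjusted p-values, the authors' deposited tables call 17 of the 40 genes higher and 6 lower in the premalignant comparison. For PB the authors' deposited table calls 2 higher and 32 lower, and for the tumor comparison the authors' deposited table calls 11 higher and 20 lower. Of all 24421 genes, in either direction, the authors' values call 6354 in the premalignant comparison, 8434 for PB and 8833 in the tumor comparison. These totals were not split by direction.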

How the data were processed

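Trizol RNA from the organoids was made into Illumina libraries, as the labels' protocols state. Each of the 3 tables that the authors deposited holds whole-number counts for every gene, beside the authors' log2 fold changes and p-values adjusted for multiple tests, as named in its header. STAR 2.6.0a and DESeq2 1.26.0 are named with the build mm10 in the submitters' processing notes. No source used here names the counting program, its strand setting or its annotation. The authors' normalized values (18 columns) were left aside. Levels are CPM, counts scaled to a library total of 1000000. Tests used edgeR 4.0.16 (R 4.3.3) on the deposited counts: genes kept by filterByExpr (minimum count 10), TMM scaling, two-sided quasi-likelihood F tests, Benjamini-Hochberg adjustment over all genes tested, threshold 0.05. The scripts were tested on simulated counts.

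The members and gene lists were chosen with earlier results of these data known. Members named first were those past the threshold with a group mean of at least 5 CPM, ranked by log2 fold change, up to 12 in each direction, plus the highest member of each role; pathway genes were taken by smallest p, up to 3 per list, and others were named after their values were seen. Of the wider pathway, 1 gene is not reported here. Alternatives were DESeq2 1.42.0, library totals, no filter, a 1 CPM filter, a replicate block, each line alone and leaving out each library. No libraries were alike within sampling noise, so none was merged. Pairs of vehicle or PB libraries came closest, with a chi-square per degree of freedom of 1.51 to 2.03, against 6.4 or more in the other same-group pairs. Among premalignant sgTgfbr2 libraries it was 6.42 and 7.10 within a line and 38.1 to 57.75 between lines.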

Additional observations from a re-analysis of the deposited data

Results flagged for a closer look

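Among the 40 genes, 3 had a premalignant sgTgfbr2 library that stood apart from the other 3 libraries of that group by Dixon's criterion, which chance meets in about 1 in 20 groups. In each the library was line 1 replicate 2, with Ddx58 at 43.6 CPM, Ifit1 at 1.80 CPM and Mx1 at 1.44 CPM, the highest of the group.

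The sgTgfbr2 difference was not the same in the tumor and premalignant tables for 22 genes, by the interaction test (edgeR, adjusted p below 0.05). It was more positive in the tumor table by a log2 difference of 2.78 for Mx1, 2.57 for Ifi44, 2.09 for Ifit3, 2.02 for Ifit2 and 0.87 for Ifi27. Mx1 and Ifi44 had too few premalignant counts to be tested there and passed the filter only through the tumor libraries, so their values are descriptions. It was more negative by a log2 difference of -3.75 for Oas3, -3.02 for Rsad2, -2.68 for Gbp3, -2.41 for Dhx58, -2.35 for Ifit1, -2.25 for Oasl2, -2.21 for Isg15, -2.13 for Oas1a and -2.11 for Ifih1. Smaller negative values were -1.81 for Stat2, -1.71 for Usp18, -1.63 for Bst2, -1.48 for Herc6, -1.16 for Eif2ak2, -1.12 for Cmpk2, -1.0 for Ifi35 and -0.57 for Parp9. Leaving out single libraries ended the calls for Cmpk2 (9 of the 12 libraries), Ifi44 (4), Parp9 (2) and Herc6 (1, tumor sgTgfbr2 replicate 2, with a value of -1.2).

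The 2 sgTgfbr2 lines differed from each other in 14 genes by the same kind of test. Line 2 was higher by a log2 difference of 1.63 for Dhx58, 0.81 for Irf9, 0.75 for Stat2, 0.46 for Usp18, 0.40 for Ifi35 and 0.26 for Trim25. It was lower, with values of -1.91 for Samd9l, -1.88 for Ifit3, -1.44 for Gbp3, -1.09 for Oas3, -1.08 for Gbp2, -1.01 for Parp14, -0.98 for Herc6 and -0.79 for Irf1. Of these, Ifit3 reached the minimum level for testing in line 1 and not in line 2. Leaving out single libraries ended the calls for Usp18, Herc6, Trim25, Ifit3, Irf9, Gbp3, Ifi35 and Gbp2, each with 3 to 5 of the libraries, and for none of the other 6 genes.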

How the results depend on the processing

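With library totals in place of TMM, the count of genes higher in PB was 1, and Ifi27 turned from 0.13 to -0.013 on the log2 scale. TMM scaling gave summed levels of 1172 CPM for tumor sgScr, 1024 for tumor sgTgfbr2, 2525 for vehicle and 1814 for PB. With line 2 alone, 11 genes had a more positive difference in the tumor table, against 5, and 15 a more negative one, against 17. Of all 15603 genes tested with line 2 alone, 4143 were more positive and 4011 more negative. Replicate numbers did not pair libraries (correlations of deviations from -0.10 to 0.14); with a replicate block, 3 members were lower in premalignant sgTgfbr2 against 6, and 5365 genes differed between the lines against 3535. Leaving out each library gave 11 to 15 members higher and 3 to 6 lower in the premalignant comparison (3 without sgScr replicate 2), 2 to 7 higher and 4 to 9 lower between lines, 9 to 11 higher and 19 to 20 lower in the tumor comparison, 2 higher and 33 to 35 lower with PB, and 4 to 6 more positive and 14 to 17 more negative between stages; the lines differed in 1448 to 5047 genes. The cause was not tested. Genes under 1 CPM rest on few counts.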
